A study of Mus musculus with 48 samples.

Results

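The genes described here encode the mitochondrial respiratory chain and ATP synthase. They were chosen by symbol: every gene named by a probe set that names 1 gene in the platform annotation, and whose symbol begins with Nduf, Sdh followed by a to d, Uqcr, Cox followed by a digit, or Atp5, or equals Cycs or Cyc1. This gave 80 genes of 8251, and where a gene had several probe sets the one with the highest mean in each tissue was kept. The 80 comprised 29 complex I subunits, 4 of complex II, 8 of complex III, cytochrome c, 15 of complex IV, 14 of complex V and 9 assembly factors. Probe sets that name several genes, which hold among others Ndufs5, Ndufs6, Ndufa11 and Cox7c, were not used. Intensity entered only in the choice between several probe sets of a gene.

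RNA of mouse hippocampus and amygdala was measured on 48 one-colour arrays in 3 arms, which the labels code CS, FC and NH. No label explains the codes. The series title, on associative and nonassociative learning, allows CS to be read as the stimulus without conditioning, FC as fear conditioning and NH as untrained home-cage animals, and the codes are kept. Hippocampus had 8 CS, 8 FC and 10 NH arrays, and amygdala had 6 CS, 6 FC and 10 NH. Strain, genotype, sex, age and time after training are not given in the labels, nor whether each array had its own animal. All p-values therefore refer to the spread between arrays, part of which may be technical. Amygdala titles carry longer numbers that may name pooled pairs, which the labels do not state. Each array belongs to a labelled processing batch. With the batch as a block, differences from NH rest on 4 NH arrays in hippocampus (2 in batch 4, 2 in batch 6) and 4 in amygdala (3 in batch 2, 1 in batch 3). The remaining NH arrays, 6 in each tissue, form batch 7 of hippocampus and batch 1 of amygdala, where no other arm was run. Batch 5, hippocampus, has CS and FC arrays only.

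Complexes I to IV of the inner mitochondrial membrane pass electrons from NADH and succinate to oxygen, with ubiquinone and cytochrome c as mobile carriers. Complexes I, III and IV pump protons, and the ATP synthase, complex V, uses the returning protons to make ATP. Neurons depend on this pathway for much of the ATP that ion pumping and synaptic transmission consume. Most subunits are encoded in the nucleus, as are all members here, and the remainder in mitochondrial DNA.

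The members were among the brightest probe sets in both tissues. Their median percentile within an array, averaged over arrays, was 92.9 in hippocampus and 91.4 in amygdala. The rule kept the brightest probe set of each gene, out of 109 for the 80 genes, while all probe sets were ranked without such a choice. The rule therefore raises these percentiles in part. Intensity was above the limit for testing, which left out the dimmest 40% of probe sets, for 71 of 80 members in hippocampus and 70 of 80 in amygdala. The 9 dim ones in both tissues were Atp5j2, Cox5a, Cox6b2, Cox7a1, Cox8a, Cox14, Cox20, Ndufa12 and Ndufaf4, and Ndufc2 was dim in amygdala only. A percentile orders probe sets within an array and does not order amounts of transcript between genes, since probes differ in brightness. Several dim probe sets belong to subunits that every cell with mitochondria needs, among them Cox5a at percentile 29.5 and Cox8a at 7.70 in hippocampus.

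Complex IV has subunit isoforms known for tissue preference. Cox6a2, Cox7a1 and Cox8b are the forms of heart and skeletal muscle, and Cox6a1, Cox7a2 and Cox8a are the widely expressed ones. Cox6a1 stood at percentile 99.5 in hippocampus and 99.4 in amygdala, and Cox7a2 at 98.7 and 98.1. Cox7a1 was near the bottom of every array, at 5.74 and 7.21, while the probe sets of Cox6a2 (70.7 and 71.6) and Cox8b (73.4 and 72.9) were in the upper range. The median level of the striated muscle markers bright enough to test (4 of 7 in hippocampus, 3 of 7 in amygdala) differed from NH by -0.02 to 0.02 on the log2 scale in CS and FC of both tissues. Such a difference between arms does not give the level of these markers and cannot show muscle tissue shared by all arms. Cox8c, the form known from testis, gave 94.0 and 93.4.

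Of the hippocampus markers with a probe set, 4 of 5 were bright enough to test in hippocampus and 1 of 5 in amygdala, and amygdala markers were in 3 of 3 in both tissues. The members' positions within the array overlapped between tissues. In none of the 70 members tested in at least 1 tissue, with the same probe set in both, did all arrays of one tissue stand above all of the other. Over all 7664 probe sets taken by the same rule, every hippocampus array was above every amygdala array in 2.66%, and the reverse held in 2.78%. Array medians differ between hippocampus and amygdala, which points to separate normalization, so only percentiles were compared. No batch holds arrays of both tissues, so a gap between tissues cannot be told apart from a gap between batches. Members near the top of the array also have little room for a gap in percentile. Cycs, the somatic cytochrome c, had the widest gap, at 68.9 among hippocampus arrays and 59.6 among amygdala arrays. Uqcrb, the ubiquinone-binding subunit of complex III, followed with 83.4 and 76.4, and Atp5k, the e subunit of ATP synthase, with 80.7 and 74.7.

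No member differed between arms in either tissue at an adjusted p below 0.05 (limma, batch as a block, Benjamini-Hochberg over all probe sets tested). Among all 7453 probe sets of a tissue, 0.0134% passed in hippocampus CS against NH, 0.0134% in FC against NH and 0% in FC against CS. In amygdala 0.0134%, 0.0939% and 0% passed. At an unadjusted p below 0.05 no member was found in any hippocampus comparison, where 1.45%, 2.27% and 0.765% of all probe sets were. In amygdala, 4 of 70 were found in CS against NH (3.92% of all probe sets), 3 in FC against NH (5.15%) and 0 in FC against CS (1.23%). All shares of members were thus near or below the background except that in amygdala CS against NH, which was 1 to 2 genes above it. With each array weighted by its estimated quality, 10 members passed in amygdala FC against NH and none in the other comparisons within a tissue.

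Intervals gave a bound to each difference, though many were wide beside the estimates, which ran from -0.24 to 0.23. In all 6 comparisons, every tested member had a 95% interval that lay between -0.5 and 0.5 on the log2 scale. Between -0.25 and 0.25 lay 41 of 71 intervals for hippocampus CS against NH, 36 for FC against NH and 68 for FC against CS. The amygdala counts were 30, 48 and 58 of 70. On simulated arrays with the same layout, the test recovered 47.8% of log2 differences of 0.25 and 95.5% of those of 0.5 in hippocampus CS against NH. For amygdala CS against NH it recovered 55.2% and 98.5%. Each simulation changed 67 of 7453 probe sets by 0.25, 67 by 0.5 and 66 by 1, with noise independent between probe sets. In the real comparisons at most 7 of 7453 passed, so the adjustment was stricter there. The recovered shares therefore do not give the chance of finding such a difference in a member.

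Although no gene passed, the signs leaned one way. In hippocampus, 60 of 71 members had a negative difference in CS against NH, where 49.5% of all probe sets did, and 56 in FC against NH (50.3%). The members' median log2 difference was -0.06 in CS and -0.07 in FC, beside 0.000901 and -0.000464 over all probe sets tested. In amygdala the lean was the other way, with 60 of 70 members positive in CS against NH (53.8% of all) and 56 in FC against NH (55.2%). The medians were 0.08 and 0.05, beside 0.00713 and 0.0104 over all probe sets. CS and FC share the same NH arrays, so the 2 comparisons of a tissue are not separate evidence. In bulk tissue, fewer cells of a type and less RNA per cell cannot be told apart.

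**Figure D1:**
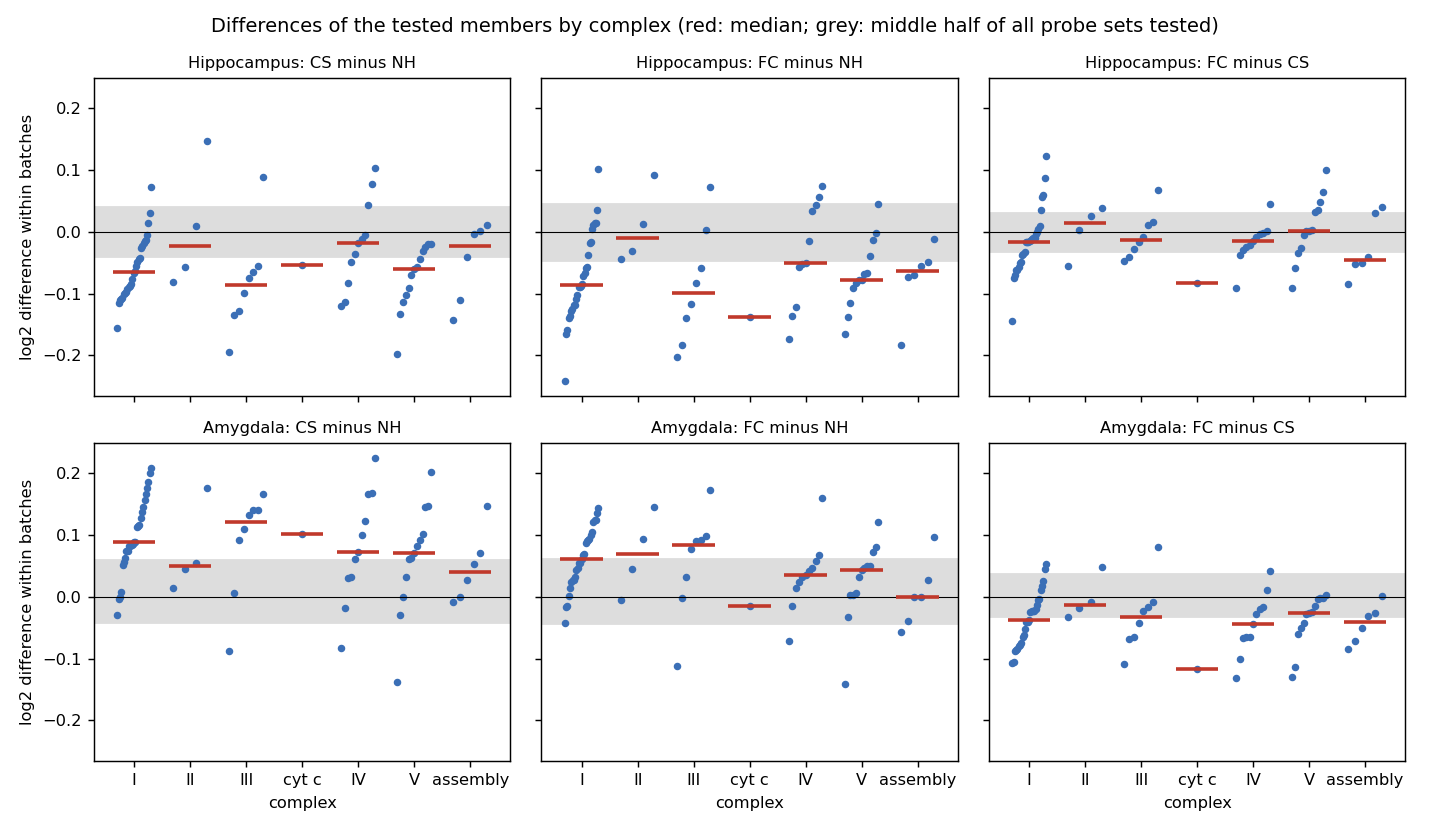
Log2 difference of each tested member (blue points) by complex, for 3 comparisons in hippocampus (top) and amygdala (bottom), from the fit with batch as a block. Red lines are group medians and the grey band is the middle 50% of all probe sets tested. Most points lie below 0 in hippocampus CS and FC against NH and above 0 in the same amygdala comparisons.

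The lean went through most complexes. For hippocampus CS against NH, 25 of 28 complex I subunits were negative (median -0.06), as were 7 of 8 in complex III (-0.09), 8 of 11 in complex IV (-0.02) and 13 of 13 in complex V (-0.06). Complex II was split, with 2 of 4 negative. For amygdala CS against NH, 25 of 27 complex I subunits were positive (median 0.09), as were 4 of 4 in complex II (0.05), 7 of 8 in complex III (0.12), 9 of 11 in complex IV (0.07) and 10 of 13 in complex V (0.07). Assembly factors, which build the complexes without staying in them, were negative in 4 of 6 in hippocampus CS against NH and 6 of 6 in FC against NH, and positive in 4 of 6 and 3 of 6 in amygdala.

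The members tended to deviate in the same direction within an array, with batch and arm not removed. In a single hippocampus array, between 14.1% and 87.3% of the 71 members lay above their own mean over the tissue, while the same share over all probe sets ran from 35.3% to 58.9%. In amygdala the shares were 17.1% to 88.6% for the members and 38.6% to 59.4% for all probe sets. How far single arrays carried each median is given below by leaving them out.

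**Figure D2:**
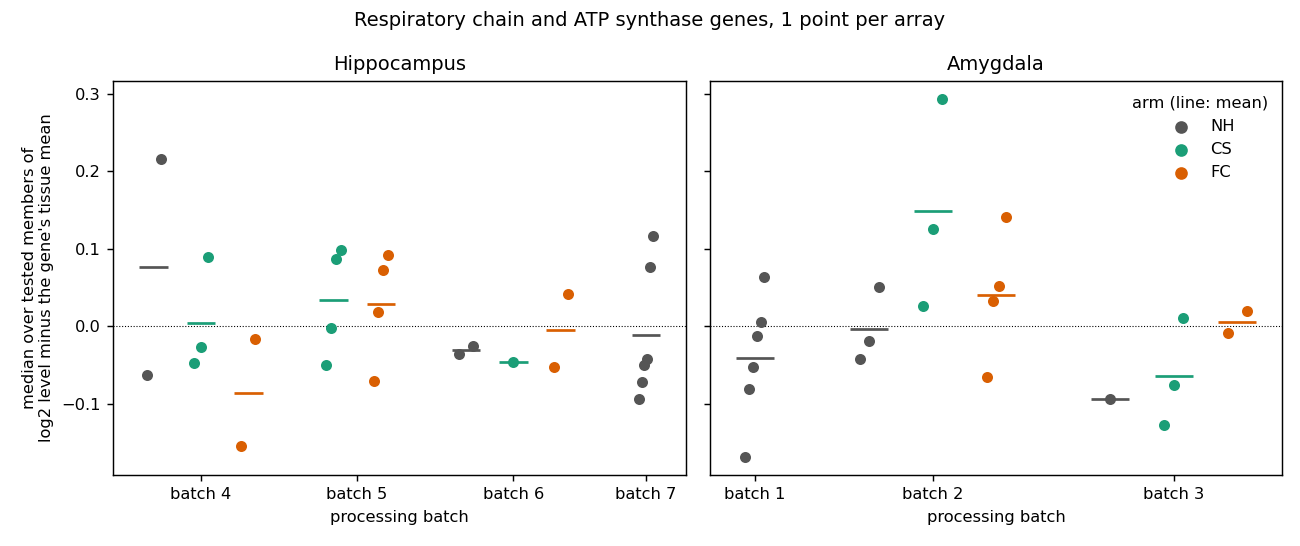
Median over the tested members of each gene's log2 level minus its mean in that tissue, 1 point per array, by processing batch and arm (grey NH, green CS, orange FC); short lines are means of an arm in a batch. The NH array of hippocampus batch 4 at 0.22 and the CS array of amygdala batch 2 at 0.29 stand highest.

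In hippocampus the highest array was NH 100 of batch 4. It had 62 of 71 members above their own mean and a median deviation of 0.22, against -0.06 in NH 111, the other NH array of its batch. Its log2 ratio of the 3′ to the 5′ Gapdh control probe set, a sign of RNA integrity, was 0.485, against at most 0.152 in the other NH arrays, and its actin ratio was 1.17 against at most 0.803. In CS and FC the Gapdh ratio reached 0.376 and 0.156. The medians of other lists were high in that array too: by 0.19 for mitochondrial import and chaperones, 0.20 for mitochondrial ribosome and gene expression and 0.14 for cytosolic ribosomal proteins. The median of the neuron markers deviated by -0.22, that of oligodendrocyte markers by -0.15 and that of hippocampus markers by 0.32. Their part in the result was not tested.

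Without NH 100 the hippocampus lean was lost. The members' median moved from -0.06 to 0.0277 in CS against NH, with 46 positive and 25 negative, and from -0.07 to 0.0038 in FC against NH, with 38 and 33. Without NH 111 the medians were -0.0953 and -0.1199. FC against NH was also moved by FC 113 (-0.0366 without it) and FC 79 (-0.1031). Within batches, the median of FC against NH was -0.1836 in batch 4, which holds NH 100, and 0.0208 in batch 6. For CS against NH it was -0.0816 in batch 4 and -0.0146 in batch 6. Without a batch term the CS median was 0.0089.

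In amygdala the highest array was CS 23139 of batch 2, with 61 of 70 members above their own mean and a median deviation of 0.29. Its actin 3′ to 5′ log2 ratio, 1.25, was the highest of the tissue, and its Gapdh ratio was -0.04, within the CS range. The median deviation of the oligodendrocyte markers was 0.34 in that array and that of the choroid plexus markers -0.23. For cytosolic ribosomal proteins it was 0.25, for mitochondrial import and chaperones 0.24, for mitochondrial ribosome and gene expression 0.24 and for the vacuolar ATPase 0.24. What part these have in the result was not tested. Without CS 23139 the median of CS against NH was 0.0424, with 53 of 70 positive. The sign held without each array in turn, with medians from 0.0424 to 0.1075.

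By batch, the amygdala medians were uneven. CS against NH gave 0.1404 in batch 2 and 0.0166 in batch 3, and FC against NH gave 0.0201 in batch 2 and 0.1106 in batch 3. Batch 3 has a single NH array. FC against NH ranged from 0.0298 without FC 2103113 to 0.0921 without FC 21927.

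**Figure D3:**
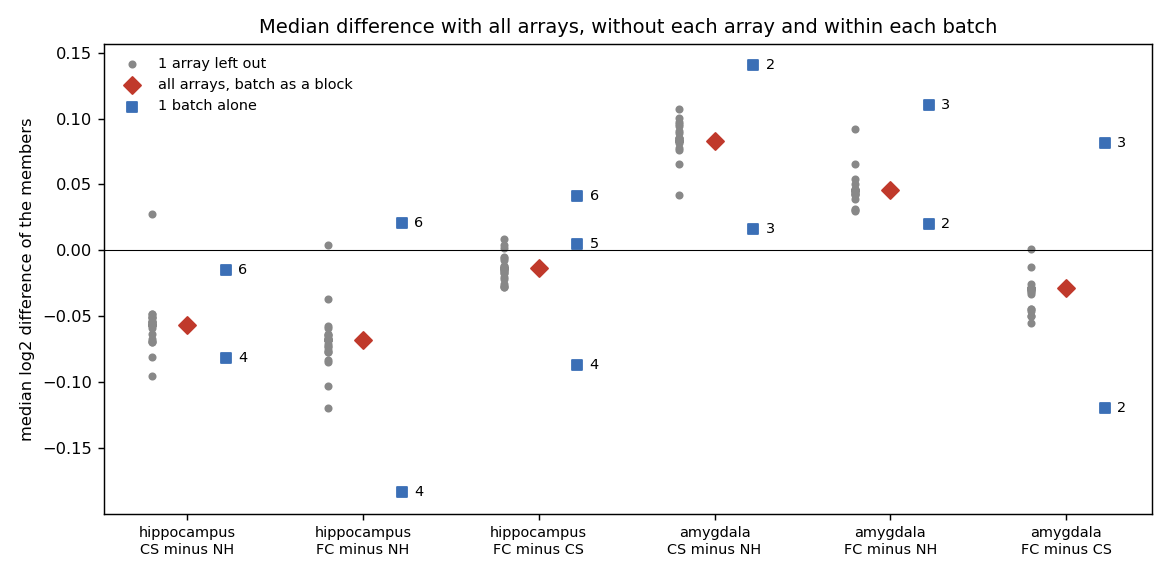
Median log2 difference of the members for 6 comparisons: with all arrays and the batch as a block (red diamonds), without each array in turn (grey points) and within single batches (blue squares, batch number beside). Both hippocampus differences from NH reach above 0 when 1 array is left out, while both amygdala differences from NH remain above 0.

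In amygdala, CS against NH gave the largest value for Cox7a2, the widely expressed subunit VIIa of cytochrome c oxidase. The log2 levels (lowest, median and highest) were 9.67, 9.90 and 10.21 in 6 CS arrays and 9.60, 9.76 and 9.99 in 10 NH arrays. In batch 2 all 3 CS arrays (9.955, 10.126 and 10.215) were above all 3 NH arrays (9.726, 9.759 and 9.881), and in batch 3 all CS arrays (9.670 to 9.853) were above the NH array at 9.606. Arms did not overlap within either batch, but over the tissue they did. The difference was 0.23 ± 0.0878 (SE; 95% interval 0.04 to 0.41; 1.17-fold), with an adjusted p of 0.942 (limma). Cox7a2 was the only member with CS above NH in every shared batch, 1 of 70, where 2.31% of all probe sets were.

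Atp5g1 ran the other way. It encodes a precursor of the c subunit, which forms the membrane ring of ATP synthase, and its paralogues Atp5g2 and Atp5g3 encode the same mature protein. Its levels were 7.32, 7.56 and 7.62 in CS, 7.38, 7.52 and 7.65 in FC and 7.36, 7.59 and 7.72 in NH (lowest, median and highest). All CS arrays lay below all NH arrays within batch 2 (7.316 to 7.584 against 7.620 to 7.643) and within batch 3 (7.514 to 7.622 against 7.716). No other member had CS below NH in both batches, 1 of 70, where 0.993% of all probe sets did. The difference was -0.14 (95% interval -0.27 to -0.01; adjusted p 0.942, limma), and a second, dimmer probe set gave -0.11. FC against NH gave -0.14 (-0.27 to -0.02; adjusted p 0.894), where FC 21927 at 7.647 lay above the NH arrays of its batch. Atp5g2 gave 0.06 in CS and 0.00321 in FC.

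**Figure D4:**
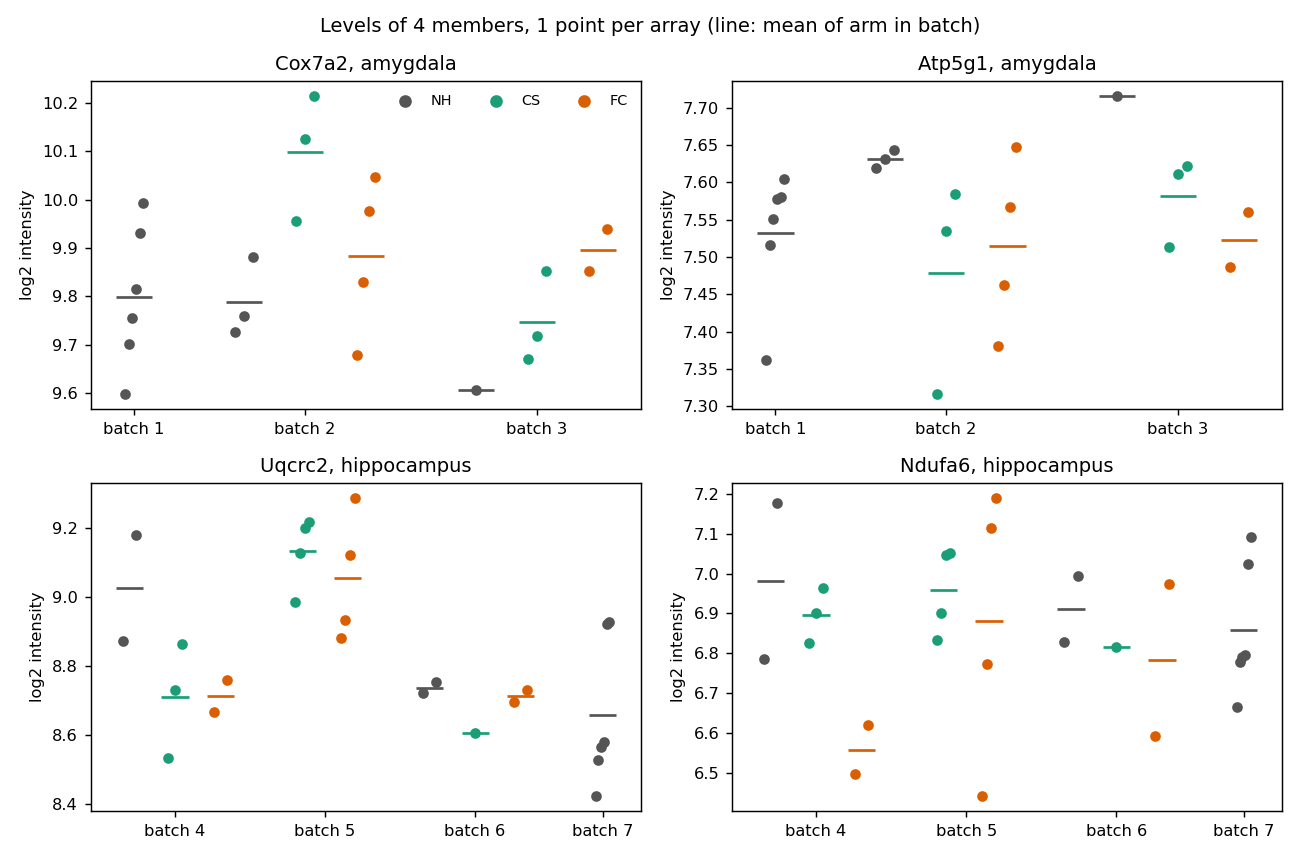
Log2 intensity of Cox7a2 and Atp5g1 in amygdala and of Uqcrc2 and Ndufa6 in hippocampus, 1 point per array, by batch and arm (grey NH, green CS, orange FC); lines are means of an arm in a batch. In amygdala batches 2 and 3, Cox7a2 of CS lies above NH and Atp5g1 of CS below NH, and Uqcrc2 of hippocampus batch 5, which has no NH array, lies above most other arrays.

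Several complex I subunits were also high in amygdala CS against NH. Ndufb7, an accessory subunit on the intermembrane space side, had a difference of 0.21 (95% interval 0.00471 to 0.41). In batch 2 its levels in CS 21523 (9.647) and CS 23139 (9.890) exceeded every NH array of the tissue. When arrays were weighted by estimated quality, CS 21523 and CS 23139 had low weights, 0.440 and 0.273. Ndufa3, an accessory subunit of the membrane arm, gave 0.19 (0.01 to 0.36) and Ndufa2 gave 0.20 (-0.000123 to 0.40). Adjusted p was 0.942 for all 3 (limma). In batch 3 the single NH array lay within the CS range for each of them. It had 9.378 for Ndufb7 (CS 9.302 to 9.474), 8.468 for Ndufa3 (8.426 to 8.676) and 8.142 for Ndufa2 (7.897 to 8.316). Among the catalytic core, Ndufv1, which holds the NADH site, gave 0.08 (-0.02 to 0.18) and Ndufs1, the largest iron-sulfur subunit, gave 0.05 (-0.07 to 0.17). Sdhb, the iron-sulfur subunit of succinate dehydrogenase, gave 0.18 (-0.02 to 0.37), and Sdhaf2, which helps to insert the flavin of Sdha, gave 0.15 (-0.00306 to 0.30). Sdha itself gave 0.05 (-0.14 to 0.25).

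Complex III and IV core members were mixed. Uqcrc1 and Uqcrc2, the core proteins of complex III, gave 0.09 (-0.04 to 0.23) and 0.14 (-0.08 to 0.37) in amygdala CS against NH. Cyc1, cytochrome c1, gave -0.09 (-0.21 to 0.03) by its brightest probe set and 0.13 by the other, so its direction depends on the probe set. Cox5b, a nuclear subunit on the matrix side, gave 0.17 (-0.03 to 0.36), Cox6a1 gave 0.12 (-0.06 to 0.30) and Cox4i1 -0.02 (-0.15 to 0.11). Atp5a1, the alpha subunit of the catalytic head of ATP synthase, gave 0.10 (-0.09 to 0.29), and Atp5e, its epsilon subunit, 0.20 (-0.05 to 0.46).

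In amygdala FC against NH, Ndufv1 and Uqcrc1 had the smallest p-values among positive members. Ndufv1 levels were 10.11, 10.16 and 10.31 in FC and 9.95, 10.06 and 10.13 in NH (lowest, median and highest). Its difference was 0.14 (95% interval 0.04 to 0.23; adjusted p 0.894, limma). Within batch 3 the arms were apart, and in batch 2 they overlapped, since NH 299141 at 10.130 lay above 2 FC arrays (10.107 and 10.115). Uqcrc1 levels were 8.68, 9.05 and 9.28 in FC and 8.56, 8.74 and 9.02 in NH, and its difference was 0.17 (0.04 to 0.31; adjusted p 0.894). FC 21927 at 8.676 lay below all NH arrays of its batch, and the other FC arrays lay above all NH arrays of theirs. Cox7a2 gave 0.16 (-0.02 to 0.34), Ndufa3 0.14 (-0.03 to 0.31) and Ndufa9 0.12 (-0.02 to 0.26), while Cyc1 gave -0.11 (-0.23 to 0.00651). No member had FC beyond NH in every shared batch in either direction, where 2.03% of all probe sets were above and 0.456% below.

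Weighting the arrays changed that comparison. FC 21927 then had the lowest weight, 0.208, and CS 23139 (0.273) and CS 21523 (0.440) had the next lowest. The highest were those of FC 3144146, 4.08, and NH 3142153, 2.94, both of batch 3, where the latter is the only NH array. Of all probe sets 911 passed, 12.2%, beside 10 of 70 members. Positive were Uqcrc1 (0.22; adjusted p 0.00639, limma with array weights), Cox7a2, Ndufv1, Sdhaf2, Ndufa3, Ndufa9, Ndufb6 and Sdhc, and negative were Atp5g1 (-0.17; adjusted p 0.0143) and Cyc1. The direction of Cyc1 depended on the probe set in CS against NH, as given above. The members' share was 1 to 2 genes above that of all probe sets.

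In the same tissue, FC against CS had 59 of 70 members below 0 (48.2% of all probe sets), with a median of -0.03. The smallest p-values among negative members were those of Cycs, at -0.12 (95% interval -0.26 to 0.03), Sdhaf1 and Cox5b, at -0.13 (-0.30 to 0.04). The median was -0.1197 in batch 2 and 0.0812 in batch 3, opposite in sign, and without CS 23139 it was 0.0008 with 36 of 70 members positive. The direction therefore differed between batches.

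In hippocampus, Uqcrc2 had the smallest p-value among negative members of CS against NH. In batch 4 its CS levels were 8.532, 8.729 and 8.865, and those of NH were 8.872 and 9.180; in batch 6 the CS array had 8.605 and NH had 8.720 and 8.752. The arms thus did not overlap within a batch, although CS 109 and NH 111 were nearly level. The difference was -0.19 (95% interval -0.41 to 0.02; adjusted p 1.00, limma), and FC against NH gave -0.20 (-0.41 to 0.00640). The CS arrays of batch 5 were high (8.986 to 9.218) and the NH arrays of batch 7 lower (8.422 to 8.928), and without a batch term the difference was 0.1609. Cox16, an assembly factor of complex IV, also had CS below NH in both batches, but in batch 4 only by 6.362 in CS 109 against 6.363 in NH 111. These 2 of 71 members compare with 1.42% of all probe sets, and none was above NH in both batches, where 1.60% of all were.

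Atp5e, the epsilon subunit of ATP synthase, had the lowest value of hippocampus CS against NH, -0.20 (95% interval -0.47 to 0.08). NH 100 had its highest level, 9.860, and the other NH arrays had 8.651 to 9.271. Uqcrq, a small subunit of complex III, and Atp5md, a small subunit of ATP synthase, each gave -0.13, with intervals of -0.30 to 0.04 and -0.32 to 0.05. Sdha, the flavoprotein of complex II, was the highest, at 0.15 (-0.10 to 0.39), followed by Cox4i1 at 0.10 (-0.06 to 0.27). Ndufs1 gave 0.07 (-0.07 to 0.21) and Atp5a1 -0.02 (-0.22 to 0.17).

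Ndufa6, an accessory subunit of complex I, had the lowest value of hippocampus FC against NH. Its levels in batch 4 were 6.497 and 6.620 in FC against 6.787 and 7.176 in NH, and in batch 6 they were 6.593 and 6.975 against 6.828 and 6.995. The arms were apart in batch 4 and overlapped in batch 6. The difference was -0.24 (95% interval -0.49 to 0.00335; adjusted p 1.00, limma), and it was negative under each of 39 alternatives, from -0.4229 to -0.1175. These alternatives mostly refit the same arrays, and Ndufa6 was picked for its low value, so the constant sign is no separate support. FC arrays of batch 5 spread from 6.443 to 7.190, so the range within that arm and batch exceeded the difference. Uqcr11 gave -0.18 (-0.41 to 0.05), Cox6c -0.17 (-0.37 to 0.02) and Ndufa3 -0.16 (-0.34 to 0.02). Ndufs4, an accessory subunit needed for stable complex I, gave 0.10 (-0.08 to 0.28). No member had FC beyond NH in both batches, where 2.29% of all probe sets were above and 1.19% below.

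Between FC and CS, hippocampus differences ran from -0.14 to 0.12. Of 71, 46 were negative (49.6% of all probe sets), with a median of -0.01. Atp5pb, the b subunit of the ATP synthase stalk, gave 0.10 (95% interval -0.000931 to 0.20), Ndufc2 0.12 (-0.01 to 0.26) and Ndufa6 -0.14 (-0.33 to 0.04). The median was -0.0872 in batch 4, 0.0048 in batch 5 and 0.0409 in batch 6, and 0.0088 without FC 113. Leaving out CS 109 or FC 43 also gave a positive median, of 0.0015 and 0.0043.

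The difference between tissues was tested in 1 fit of all arrays, which takes every array as independent. Several amygdala titles hold the numbers of hippocampus arrays of the same arm, so arrays of both tissues may come from the same animals, which the labels do not state. For CS against NH, 61 of 69 members were more positive in amygdala than in hippocampus, where 50.7% of all probe sets were, with a median of 0.14. No member passed (0% of all probe sets did), with a smallest adjusted p of 0.998 (limma). At an unadjusted p below 0.05 were 7 members, all higher in amygdala, beside 2.53% of all probe sets. Among them were Atp5e at 0.40 (95% interval 0.01 to 0.79), Cox7a2 at 0.34 (0.08 to 0.59), Uqcrc2 at 0.34 (0.02 to 0.65), Ndufb7 at 0.32 (0.05 to 0.59) and Ndufa3 at 0.29 (0.04 to 0.55). For Cox7a2 the hippocampus difference was -0.11 and the amygdala difference 0.23. Without NH 100, 55 of 69 members were more positive in amygdala and 0 were at an unadjusted p below 0.05, and without CS 23139 the counts were 59 and 1. Leaving out other arrays raised the latter count, to 17 without NH 111, 15 without CS 251101, 13 without CS 3143145, 12 without CS 109 and 11 without FC 79, and lowered it to 3 or 4 without CS 21523, NH 28892, NH 299141 or CS 85.

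For FC against NH, 57 of 69 members were more positive in amygdala (53.0% of all probe sets), with a median of 0.12. None passed (0% of all). Without NH 100 the count was 50 of 69. Cox7a2 at 0.30 (95% interval 0.04 to 0.55) and Ndufa3 at 0.30 (0.05 to 0.55) were at an unadjusted p below 0.05, 2 of 69 beside 3.42% of all probe sets. That count was 0 without NH 100, 1 without FC 113, 14 without NH 111, 12 without FC 21927, 9 without FC 79, and 2 to 5 without any other array. For FC against CS none passed (0% of all) and none was at that limit (1.37% of all), with a median of -0.03.

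Promoters were read to see which sequence features the members share. RefSeq windows (GRCm38.p6) of 300 bases, 250 before and 50 after a transcription start, were at hand for 64 of the 80 genes, in 70 windows. Letters of sites known for nuclear genes of mitochondrial proteins were searched on both strands. The letters of nuclear respiratory factor 1 (NRF1), which are GCGCA, any base and GCGC, were in 18.6% of member windows and 4.60% of 32851 windows of all genes. CCGGAAG, for ETS factors such as GABP, was in 31.4% and 8.86%, and AAGATGGCG, for YY1, in 7.14% and 1.40%. At least 1 of these was in 51.4% of member windows and 13.6% of all. The windows of all genes were not limited to genes on the array, nor matched for brightness or base content. Whether windows of other bright genes hold these letters as often was not tested. Such a match describes letters and is not a bound site. The 150 bases before the start are given 5′ to 3′ on the gene's strand for 4 members, with matches in capitals. Cox7a2 and Atp5g1 are shown because they had the highest and the lowest difference in amygdala CS against NH, Sdha for its 3 NRF1 matches and Atp5j, coupling factor 6 of ATP synthase, for a YY1 and an ETS match.
Cox7a2, chr9:79759854-79760003, minus strand: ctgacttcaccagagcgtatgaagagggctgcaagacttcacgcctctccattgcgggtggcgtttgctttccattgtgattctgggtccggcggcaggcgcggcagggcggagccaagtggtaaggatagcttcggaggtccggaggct
Atp5g1, chr11:96075632-96075781, minus strand: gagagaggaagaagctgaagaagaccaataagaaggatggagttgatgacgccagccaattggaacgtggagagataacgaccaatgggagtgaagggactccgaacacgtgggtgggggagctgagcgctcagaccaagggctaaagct
Sdha, chr13:74350241-74350390, minus strand: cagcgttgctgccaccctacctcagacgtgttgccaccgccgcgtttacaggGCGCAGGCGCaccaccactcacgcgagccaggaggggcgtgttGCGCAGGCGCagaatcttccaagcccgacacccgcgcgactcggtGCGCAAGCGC
Atp5j, chr16:84834977-84835126, minus strand: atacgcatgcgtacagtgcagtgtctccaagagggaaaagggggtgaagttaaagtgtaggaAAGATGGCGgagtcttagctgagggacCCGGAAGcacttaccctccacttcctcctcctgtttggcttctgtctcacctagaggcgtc
Neither Cox7a2 nor Atp5g1 holds any of the letters searched in the 150 bases shown. The 3 NRF1 matches of Sdha begin 98, 55 and 10 bases before the start, while in Atp5j the YY1 match begins at 88 and the ETS match at 61. A second Atp5j window, at another start, held no match in its 150 bases.

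Neighbouring pathways were examined through lists of genes, and no gene of them passed in any comparison. In amygdala CS against NH, 23 of 27 cytosolic ribosomal proteins were positive (median 0.11), 18 of 20 genes of mitochondrial import and chaperones (0.09), 16 of 19 of mitochondrial ribosome and gene expression (0.06) and 12 of 13 vacuolar ATPase subunits (0.08). So were 15 of 20 genes of the TCA cycle and pyruvate dehydrogenase (0.05), 13 of 15 of glycolysis (0.07), 7 of 11 carriers and porins (0.04), 5 of 5 mitochondrial antioxidants (0.10) and 4 of 5 regulators of mitochondrial biogenesis (0.08). The positive lean was thus shared with genes outside the respiratory chain. In hippocampus CS against NH the same lists gave, in that order, 9 of 27 positive (-0.00904), 4 of 20 (-0.03), 2 of 18 (-0.04), 5 of 13 (-0.01), 9 of 20 (-0.01), 8 of 15 (0.00136), 5 of 11 (-0.03), 2 of 6 (-0.02) and 1 of 7 (-0.05).

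In amygdala FC against NH, 22 of 27 cytosolic ribosomal proteins were positive (median 0.05), 18 of 20 of import and chaperones (0.04), 14 of 19 of mitochondrial ribosome and gene expression (0.05) and 10 of 13 of the vacuolar ATPase (0.04). So were 16 of 20 of the TCA cycle and pyruvate dehydrogenase (0.05), 14 of 15 of glycolysis (0.08), 6 of 11 carriers and porins (0.00663), 5 of 5 antioxidants (0.06) and 4 of 5 regulators (0.09). In hippocampus FC against NH the positive counts, in that order, were 11 of 27 (-0.02), 6 of 20 (-0.02), 2 of 18 (-0.06), 2 of 13 (-0.07), 8 of 20 (-0.02), 5 of 15 (-0.03), 4 of 11 (-0.02), 2 of 6 (-0.02) and 2 of 7 (-0.02).

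Cell type markers were summed up per array as the median deviation over the markers tested. In amygdala that of oligodendrocyte markers was 0.09 higher in CS and 0.15 higher in FC than in NH (residual SD 0.123). That of microglia was 0.06 and 0.09 higher (residual SD 0.0421). Microglia markers tested were positive in 7 of 8 in each arm, oligodendrocyte markers in 4 of 5, and neuron markers in 7 of 9 in CS and 8 of 9 in FC. The remaining oligodendrocyte marker, Mag, gave -0.18 in CS and -0.09 in FC. Choroid plexus medians differed from NH by -0.06 and -0.10 (residual SD 0.131), with 1 of 3 markers positive in each arm. Blood medians differed by -0.03 and -0.06 (residual SD 0.0862), with 1 of 5 positive in each. In hippocampus the neuron median was 0.07 and 0.06 higher in CS and FC (residual SD 0.113), with 6 of 9 markers positive in each. That of 3 amygdala markers was 0.12 and 0.09 higher (residual SD 0.0728), which the single markers did not bear out. Of them, 2 of 3 were positive in CS (median of the gene differences 0.02) and 1 of 3 in FC (-0.00870). The blood median differed by -0.09 and -0.00835, with 1 of 5 and 3 of 5 markers positive (median of the gene differences -0.07 and 0.02). The actin 3′ to 5′ log2 ratio differed from NH by 0.08 in CS and 0.05 in FC of amygdala, and by 0.03 and -0.12 in hippocampus. No marker gene passed, and the part of cell mixture or RNA quality in the members' values was not tested.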

How the data were processed

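Expression was measured on 48 oligonucleotide arrays. The authors deposited linear intensity for each probe set, made with RMA per the submitters' processing notes; its version is not given in the sources used here. RMA, as generally described, makes array distributions alike and so hides shifts common to most genes. Hippocampus array medians lay between 76.5 and 80.8, and those of amygdala between 52.3 and 56.1. Of 12488 probe sets, 66 controls were left out, and 10833 name 1 gene in the annotation used. The number of arrays limits the precision.

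The log2 of the intensity was taken with nothing added, the dimmest 40% of probe sets in each tissue were left out, and 7453 were fitted with limma 3.58.1 in R 4.3.3, with the batch as a fixed block beside 3 arms, two-sided, with Benjamini-Hochberg adjustment over all of them and a threshold of 0.05. A joint fit of both tissues tested their difference over 7242 probe sets. The 6 comparisons and 3 differences between tissues form the whole family. The fit was tested on simulated data.

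The members, gene lists and markers were chosen with earlier results of these data known. All members could be named; for each comparison those with the smallest p in each direction and fixed core subunits and isoforms were, and of the lists none passed. Genes with no probe set naming 1 gene, such as Uqcrfs1, Atp5b and Cox4i2, were not analysed here. The probe sets of Uqcrc2, Uqcrb, Ndufa3, Ndufb5, Cox6a1, Cox6c, Atp5d, Atp5g2, Atp5md and Sdhaf1 carry the suffix f, which marks possible shared hybridisation with related transcripts. Those of Atp5g1, Cox6b1, Cox8b, Ndufb2 and, in amygdala, Cyc1 carry r, that of Atp5e i, those of Sdhb and Ndufa5 s and that of Atp5c1 g, which mark other departures from the usual probe selection. All their values are less certain. Alternatives were no or a random batch term, other limits on dim probe sets, other scaling, 16 added to the intensity, 2 arms only, array weights, an intensity trend, the mean of a gene's probe sets, single batches and each array left out.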

Additional observations from a re-analysis of the deposited data

Results flagged for a closer look

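Each check took 1 measure in 1 arm of a tissue: the level of a core or isoform member, the members' median deviation or a control ratio. Batch was not removed, and checks within an arm share its arrays. They are therefore not independent, and no chance rate is set beside the count. In 16 of 150 checks, 1 array stood apart from its arm by Dixon's criterion. In hippocampus CS these were Ndufs1 at 9.04 in CS 39 (nearest 8.81), Cox6b1 at 6.33 in the same array (nearest 6.56) and the dim Cox7a1 at 3.61 in CS 75 (nearest 3.34). In FC it was Cox8b at 7.82 in FC 113 (nearest 7.45). In NH they were Cox5b at 9.74 in NH 111 (nearest 9.99), Cox7a1 at 3.67 in NH 66 (nearest 3.40) and Atp5g2 at 7.83 in NH 100 (nearest 7.67). NH 100 also stood apart in the 3′ to 5′ log2 ratio of Gapdh, 0.485 (nearest 0.152), and of actin, 1.17 (nearest 0.803).

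In amygdala CS, Cox4i1 at 6.17 in CS 21523 (nearest 6.01) and Atp5g1 at 7.32 in CS 23139 (nearest 7.51) stood apart. In the latter array 61 of 70 members lay above their own mean, while Atp5g1 had its lowest level of the tissue. In FC, Atp5a1 was 9.47 in FC 21927 (nearest 9.86), and Cox7a1 was 3.24 in FC 3144146 (nearest 3.08). In NH, Cox6a1 was 10.9 in NH 17172 (nearest 10.7), Cox6b2 was 5.23 in NH 299141 (nearest 4.80) and Cox7a2l was 8.15 in NH 16768 (nearest 8.36).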

How the results depend on the processing

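No member passed in any of the 6 comparisons, nor in the 3 differences between tissues, under each alternative and with each array left out (0 to 0), except that 10 passed in amygdala FC against NH with array weights. Within batches the median of FC against NH in hippocampus was -0.1836 in batch 4 and 0.0208 in batch 6, and that of FC against CS in amygdala was -0.1197 in batch 2 and 0.0812 in batch 3; the cause was not tested.

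With each array left out in turn, the hippocampus medians ran from -0.0953 to 0.0277 in CS against NH, from -0.1199 to 0.0038 in FC against NH and from -0.028 to 0.0088 in FC against CS. The amygdala medians ran from 0.0424 to 0.1075, from 0.0298 to 0.0921 and from -0.0551 to 0.0008. With array weights the hippocampus medians were -0.0093, -0.0034 and 0.012, and those of amygdala 0.0375, 0.0848 and 0.0368. With quantile normalization in amygdala they were 0.0507 in CS and 0.0167 in FC against NH, with 42 of 70 positive in the latter. Of the values under alternatives of the members named for a comparison by the rule, 5093 stayed on the same side of the threshold with like size, 223 moved by more than the spread and 7 passed, all with array weights; they are among the 10. No paired analysis was possible because the arms of a tissue share no replicate number. The 4 NH arrays per tissue that share a batch limit every difference from NH.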
